A study of Mus musculus with 57 samples.

Results

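The loss of *Hoxa5* function was examined here in the trachea at embryonic day E15.5, in 8 bulk RNA-seq libraries of the 57 in the series. Of the 56860 genes counted, 19220 averaged 1 TPM (transcript level scaled to library size and gene length) or more in wild-type or mutant tracheas, and these were tested. The 4 wild-type (wt) and 4 *Hoxa5*-/- tracheas came from embryos of mouse lines kept on the 129/Sv background. Mutants were homozygous for *Hoxa5*tm1Rob, a null allele in which a *neomycin* cassette interrupts the homeobox in the second exon, and this allele is present in all cells of the embryo. Since the allele is an insertion and not a deletion, mutants can still yield reads from the *Hoxa5* exons. Sequencing of polyA RNA gave single-end reads of 100 bases, and was done at the same centre as for lung and diaphragm. Members of gene lists were chosen for the cell types that a trachea holds and for tissues that lie beside it, with earlier results of these data known. Counts of list members set beside the share of all genes therefore describe the lists and are no independent support.

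HOXA5 is a homeodomain transcription factor of the mesenchyme of the trachea, lung and diaphragm, and mice that lack it are known for respiratory failure at birth with malformed laryngeal and tracheal cartilage and a narrowed airway. The embryonic trachea is a tube of endodermal epithelium wrapped in splanchnic mesenchyme. Within this mesenchyme, *Sox9*-positive cells form the ventral cartilage rings while a dorsal band of cells forms the trachealis smooth muscle, and the epithelium gives rise to basal, secretory and ciliated cells.

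Libraries held 23097464 to 39742853 counts, and the median total was 28206929 for wt and 28680505.5 for *Hoxa5*-/-. Defining markers of the trachea were abundant in both genotypes. Mean levels in wt and *Hoxa5*-/- libraries were 112 and 118 TPM for *Nkx2-1*, the respiratory endoderm factor, 105 and 141 TPM for *Sox9*, the master regulator of chondrocytes, and 1147 and 922 TPM for *Acta2*, smooth muscle actin. Of the smooth muscle markers, however, *Tagln* had a mean of only 4.05 TPM in wt libraries. By *Xist* and Y-linked counts, wt replicates 1 and 4 and *Hoxa5*-/- replicates 2 to 4 were female, so that embryo sex was not balanced between the genotypes. Values of a tissue sample reflect both the number of cells of a type and the RNA in each, and fewer cells of a type and less RNA per cell cannot be told apart. The p-values measure the spread between these embryos.

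Adjacent tissues were present in amounts that differed between libraries. The first principal component of the 8 libraries held 51.3% of the variance, and wt replicate 3 (-52.8) and *Hoxa5*-/- replicate 3 (-37.0) lay farthest to 1 side of it, with the other 6 between -13.3 and 42.3. In wt replicate 3, the summed level of the 8 tested thyroid genes was 933 CPM (counts scaled to library size, with TMM normalisation) against 9.76 to 14.02 CPM in the other 7 libraries. *Hoxa5*-/- replicate 3 held 4463 CPM of skeletal muscle genes against 249.6 to 1279.8 CPM elsewhere. It also held 14112 CPM of cartilage matrix genes, while the other 7 libraries had 3865 to 6449.8 CPM. Results are therefore also given without both of these libraries, a choice made after the data had been seen.

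**Figure D1:**
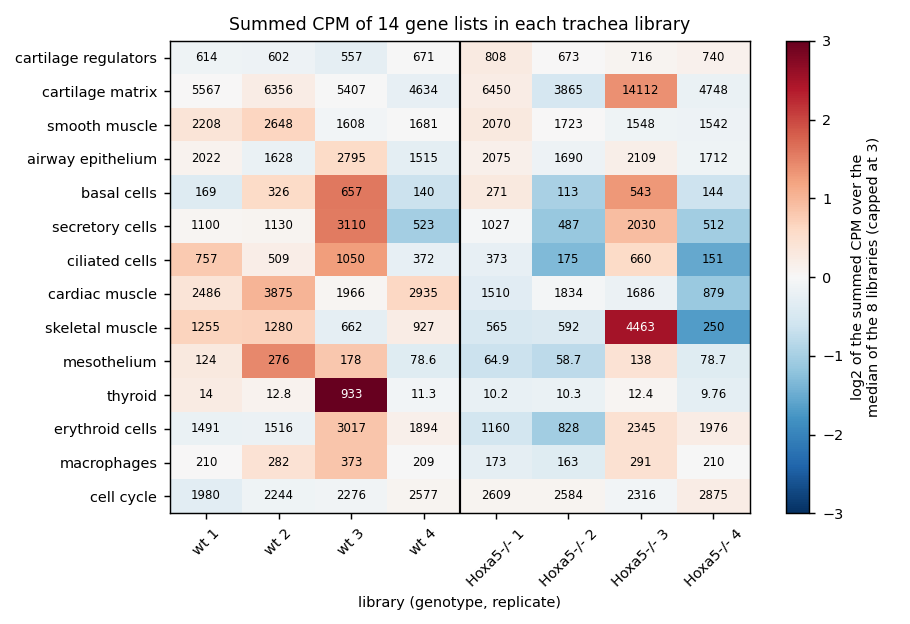
Summed CPM of 14 gene lists (lines) in each of the 8 trachea libraries (columns), with the sum printed in each cell and the colour giving its log2 ratio to the median of the 8 libraries, capped at 3. The thyroid sum stands apart in wt replicate 3, and cartilage matrix and skeletal muscle in *Hoxa5*-/- replicate 3. Among the 14 lists, cartilage regulators and cardiac muscle separate all wt from all *Hoxa5*-/- libraries, the regulators narrowly (highest wt 671 CPM, lowest *Hoxa5*-/- 673 CPM). Sums of blood endothelium and of FGF and BMP genes, not drawn here, also separate them.

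Genotypes were compared to ask which genes depend on *Hoxa5* in the trachea. With edgeR's quasi-likelihood test, 3 of the 19220 genes (0.0156%) passed both an adjusted p of 0.05 and a fold change of 1.5. They were *Hoxa5*, the endothelial phosphatase gene *Ptprb* and the pseudogene *Gm19248*. DESeq2's Wald test on the same libraries called 52 genes (0.271%), 32 higher and 20 lower in mutants, among them the 3 called by edgeR. At an unadjusted p under 0.05, edgeR found 589 genes (3.06%) higher and 699 (3.64%) lower in *Hoxa5*-/- tracheas. In 375 genes (1.95%) every mutant library was above every wt library, and in 370 (1.93%) every mutant library was below. With *Xist* as a covariate 1 gene was called, *Vwf*, and none of the 3. Leaving out single libraries gave 1 call without wt replicate 1 (*Gm19248*), 1 without wt replicate 3 (*Sulf2*) and 0 without any of the other 6. Without both replicates 3, *Hoxa5* alone was called.

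*Hoxa5* fell in mutants. Its level was 48.99, 47.1, 37.9 and 53.6 CPM in wt replicates 1 to 4 and 14.1, 14.7, 10.3 and 18.4 CPM in *Hoxa5*-/- replicates 1 to 4. All 4 mutant values lay below all wt values, but none was near 0. The log2 fold change was -1.71 (SE 0.18), with an adjusted p of 0.0475 by edgeR and 4.90e-16 by DESeq2. It stayed between -1.85 and -1.57 when each library was left out, although no adjusted p was then under 0.05 by edgeR (0.052 to 0.314). On GRCm39 the gene lies on the minus strand of chromosome 6, from 52178734 to 52181567.

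*Gm19248* was nearly absent from wt tracheas and present in every *Hoxa5*-/- trachea. It is annotated as a processed pseudogene of *Tmsb10*, which encodes thymosin beta 10, an actin-monomer binding protein, and lies on the plus strand of chromosome 7 from 46616996 to 46617105. The levels were 0.273, 0, 0.0251 and 0 CPM in wt replicates 1 to 4, a total of 8 counts, and 17.9, 11.8, 17.8 and 21.5 CPM in *Hoxa5*-/- replicates 1 to 4. The fitted log2 fold change of 7.89 (SE 0.73) rests on few wt counts, with an adjusted p of 0.0475 by edgeR and 6.40e-38 by DESeq2. Lung and diaphragm at E15.5 gave 9.08 and 8.26 for the same contrast. As it copies a stretch of an abundant gene, its level is uncertain, and the placement of reads was not tested. The 110 bases of the pseudogene are shown with the matching stretch of *Tmsb10* (chromosome 6, minus strand), read 5′ to 3′ from GRCm39 and from GENCODE M39, and capitals mark the positions at which they differ.
Gm19248: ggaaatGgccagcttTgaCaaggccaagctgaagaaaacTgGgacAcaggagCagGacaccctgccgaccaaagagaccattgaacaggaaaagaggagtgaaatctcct
Tmsb10: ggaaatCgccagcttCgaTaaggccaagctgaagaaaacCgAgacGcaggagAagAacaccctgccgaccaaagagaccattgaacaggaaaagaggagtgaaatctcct
They were identical at 92.7% of positions. Counted from 1 at the 5′ end of the pseudogene, with the *Tmsb10* base first, the 8 differences were C7G, C16T, T19C, C40T, A42G, G46A, A53C and A56G. All lay in the first 56 bases, and the last 54 bases were the same in both. Per 100 counts of *Tmsb10*, *Gm19248* had 4.05 to 8.18 counts in mutants and 0 to 0.103 in wt libraries. *Tmsb10* itself had 5780 to 8857 counts in mutant and 5932 to 9159 in wt libraries.

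*Ptprb*, which encodes the vascular endothelial receptor phosphatase VE-PTP, fell in mutants as well. It was measured at 51.4, 49.8, 53.9 and 58.1 CPM in wt replicates 1 to 4 and at 30.8, 34.04, 34.97 and 33.9 CPM in *Hoxa5*-/- replicates 1 to 4. The groups did not overlap, and values within each group were close. Its log2 fold change was -0.67 (SE 0.07), with an adjusted p of 0.0475 by edgeR and 8.58e-14 by DESeq2, and it stayed between -0.70 and -0.63 without any 1 library. In lung and diaphragm of the same stage it was -0.86 (SE 0.13) and -0.60 (SE 0.13). The adjusted p by edgeR was 0.0644 in lung and 0.1 in diaphragm, so neither passed.

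**Figure D2:**
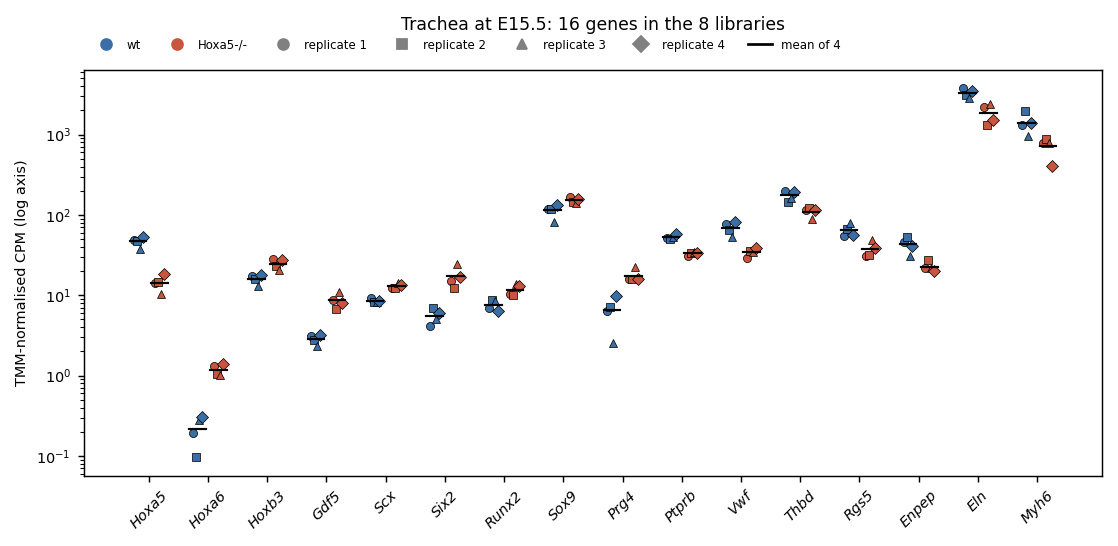
TMM-normalised CPM (log axis) of 16 genes in the 8 trachea libraries, wt in blue and *Hoxa5*-/- in red, with the marker shape giving the replicate number and the line the mean of 4. In all 16 genes the 4 *Hoxa5*-/- values lie wholly above or wholly below the 4 wt values, which for some was a condition for being named. The genes were picked from those described in the text.

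Of the 39 *Hox* genes, 17 reached the TPM minimum in trachea, and 12 of them had a log2 fold change above 0, against 50.6% of all genes. Their median was 0.18, and it stayed between 0.12 and 0.38 when each library was left out. *Hoxa6*, the neighbour of *Hoxa5* on its upstream side, begins 4.135 kb from the *Hoxa5* start (chromosome 6, 52183268 to 52185702). It was barely transcribed in wt tracheas, with 0.195, 0.0967, 0.276 and 0.308 CPM in replicates 1 to 4, and reached 1.31, 1.05, 1.01 and 1.38 CPM in *Hoxa5*-/- replicates 1 to 4. These are 3 to 11 counts in each wt library and 32 to 37 in each mutant, so that all mutants were above all wt libraries. The log2 fold change of 2.42 (SE 0.33) had an adjusted p of 0.139 by edgeR and 6.37e-05 by DESeq2.

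*Hoxa4*, the neighbour on the other side at 12.83 kb, was at 25.04, 21.4, 13.9 and 22.1 CPM in wt and 14.5, 14.9, 8.27 and 16.7 CPM in *Hoxa5*-/- replicates 1 to 4. Values were low in both replicates 3, and wt replicate 3 lay below 3 of the mutants. On the log2 scale the fold change of -0.601 (SE 0.24) had an adjusted p of 0.736 by edgeR and 0.472 by DESeq2. *Hoxa2* and *Hoxa3* had log2 fold changes of -0.102 and -0.05, each within its SE of 0, and from *Hoxa7* to *Hoxa13* the genes were below the TPM minimum. The antisense transcript *Hoxaas3* spans *Hoxa4*, *Hoxa5* and *Hoxa6* on the plus strand without sharing exon bases with them, and it had a log2 fold change of -0.16 (SE 0.19). Whether reads were counted by strand is not given in the sources used here.

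**Figure D3:**
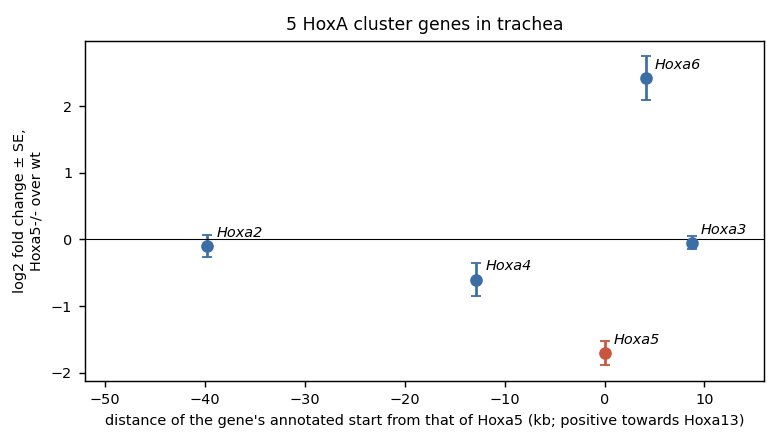
Log2 fold change (*Hoxa5*-/- over wt, bars show SE) of 5 *Hoxa* genes, from *Hoxa2* to *Hoxa6*, in trachea against the distance of the annotated gene start from that of *Hoxa5* in kb, with positive distances towards *Hoxa13*. *Hoxa6* lies at 2.42, *Hoxa4* at -0.60 and *Hoxa5* at -1.71, while *Hoxa2* and *Hoxa3* lie near 0 (the annotated start of *Hoxa3* is that of its longest transcript, upstream of *Hoxa6*).

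In the *HoxB* cluster, all 6 genes tested (*Hoxb2* to *Hoxb7*) had a log2 fold change above 0. For *Hoxb7* it was 0.18 (SE 0.37), within its SE of 0, and it turned to -0.038 without wt replicate 4. *Hoxb2* gave 0.39 (SE 0.22) and *Hoxb6* 0.59 (SE 0.33). *Hoxb3* was at 17.3, 15.95, 12.9 and 17.9 CPM in wt and 28.03, 22.9, 20.4 and 27.5 CPM in *Hoxa5*-/- replicates 1 to 4, with every mutant above every wt library. Its log2 fold change was 0.63 (SE 0.14), with an adjusted p of 0.598 by edgeR and 0.0141 by DESeq2. *Hoxb4* followed with 0.48 (SE 0.15) and *Hoxb5*, a paralog of *Hoxa5*, with 0.54 (SE 0.24), at adjusted p of 0.682 and 0.745 by edgeR. In wt replicate 1 *Hoxb5* was at 9.697 CPM, above 3 of the 4 mutants, whereas the other 3 wt libraries lay below all mutants. The other paralog, *Hoxc5*, gave -0.01 (SE 0.53). Among cofactors of the TALE family, *Pknox2* gave -0.54 (SE 0.19) and *Meis2* 0.33 (SE 0.15), and neither passed the test by either tool.

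Cartilage regulators had higher values in mutants, whereas the direction of the cartilage matrix genes depended on 1 library. All 12 regulators tested had a log2 fold change above 0, against 50.6% of all genes, with a median of 0.34 (between 0.26 and 0.42 without each library in turn). The unadjusted p was under 0.05 for 6 of the 12 and the groups did not overlap in the same number, against 3.06% and 1.95% of all genes in that direction. The summed level of the list was 557 to 671 CPM in wt and 673 to 808 CPM in *Hoxa5*-/- libraries. No regulator passed edgeR's test, and DESeq2 called *Gdf5* alone.

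*Gdf5*, a ligand of the BMP family that marks forming joints and early chondrogenic cells, was at 3.08, 2.77, 2.36 and 3.21 CPM in wt replicates 1 to 4 and at 8.83, 6.81, 11.02 and 8.12 CPM in *Hoxa5*-/- replicates 1 to 4. The lowest mutant was above the highest wt library by more than the range within wt. Its log2 fold change was 1.61 (SE 0.18), with an adjusted p of 0.0674 by edgeR and 1.52e-11 by DESeq2, and between 1.47 and 1.71 without any 1 library. When no filter on low values was applied, edgeR called it too.

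*Sox9* was at 119.6, 119.998, 81.7 and 134 CPM in wt and 166, 144, 139 and 156 CPM in *Hoxa5*-/- replicates 1 to 4, lowest in wt replicate 3 and without overlap of the groups. The log2 fold change of 0.41 (SE 0.14) had an adjusted p of 0.682 by edgeR and 0.295 by DESeq2. For *Runx2*, the factor of hypertrophic chondrocytes and osteoblasts, the values were 6.85, 8.73, 8.52 and 6.33 CPM in wt and 10.3, 9.98, 13.7 and 12.9 CPM in *Hoxa5*-/- libraries. The groups again did not overlap, and the log2 fold change was 0.62 (SE 0.16) with adjusted p of 0.643 by edgeR and 0.0628 by DESeq2. *Ihh*, a signal of maturing chondrocytes that is expressed near the TPM minimum here, gave 0.87 (SE 0.27), and *Sox5* 0.36 (SE 0.14).

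*Six2*, a homeobox gene of mesenchymal progenitors, had one of the larger differences outside the lists. It was at 4.13, 6.87, 4.999 and 5.98 CPM in wt and 15.1, 12.3, 24.5 and 16.7 CPM in *Hoxa5*-/- replicates 1 to 4, and the lowest mutant was above the highest wt library. Its fitted log2 difference of 1.64 (SE 0.24) had an adjusted p of 0.225 by edgeR and 2.19e-07 by DESeq2. *Scx*, the transcription factor of tendon and ligament progenitors, was at 9.15, 8.28, 8.21 and 8.57 CPM in wt and 12.3, 12.2, 14.1 and 13.3 CPM in *Hoxa5*-/- libraries, a narrow range within each genotype. Its log2 fold change was 0.604 (SE 0.10), with adjusted p of 0.284 by edgeR and 7.23e-06 by DESeq2. DESeq2 also called *Prg4*, which encodes the joint lubricant lubricin, with 6.39, 7.19, 2.51 and 9.798 CPM in wt and 15.9, 15.8, 22.7 and 15.99 CPM in *Hoxa5*-/- libraries. *Prg4* lies outside the naming rule and was chosen after its values were seen, and its log2 fold change was 1.45 (SE 0.36) with adjusted p of 0.61 by edgeR and 0.0137 by DESeq2. *Tnmd* and *Mkx*, tendon genes looked at beside them, had 0.56 (SE 0.88) and 0.04 (SE 0.30), each within its SE of 0.

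The matrix genes of cartilage gave a median of 0.42 over 21 members, 17 of them above 0, but the median was -0.43 without *Hoxa5*-/- replicate 3 and -0.39 without both replicates 3. *Col2a1*, the main collagen of cartilage, was at 1966, 2349, 2014 and 1532 CPM in wt and 2161, 1119, 6067 and 1427 CPM in *Hoxa5*-/- replicates 1 to 4. *Hoxa5*-/- replicate 3 was far above all other libraries and replicates 2 and 4 were below every wt library. The log2 fold change of 0.45 (SE 0.49) became -0.31 without both replicates 3, and its adjusted p was 0.837 by edgeR and 0.922 by DESeq2. *Cnmd*, chondromodulin, gave 0.85 (SE 0.30) with an adjusted p of 0.692 by edgeR, and 0.49 at the least when 1 library, *Hoxa5*-/- replicate 3, was left out. *Col10a1*, the collagen of hypertrophic cartilage, gave -1.36 (SE 0.55) with an adjusted p of 0.736 by edgeR, and -0.77 without wt replicate 1, whose 5.22 CPM exceeded the 0.967 to 2.504 CPM of the other wt libraries. For the regulators the median was 0.25 without both replicates 3, where 10 of 12 (against 50.7% of all genes) were above 0 and 6 were higher at an unadjusted p under 0.05, against 4.65% of all genes.

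Fibroblast and perichondrium genes had a median of -0.03, with 6 of 14 above 0. *Col1a1* was the most abundant of them and had a log2 fold change of -0.09 (SE 0.11). Besides *Scx*, the smallest p belonged to *Prrx1*, a factor of limb and craniofacial mesenchyme, at 0.47 (SE 0.15) with adjusted p of 0.682 by edgeR and 0.177 by DESeq2. Transcription factors of the tracheal mesenchyme gave a median of 0.21. Of these, *Foxf1*, a Hedgehog target required for foregut smooth muscle, was at 49.8, 46.2, 36.1 and 34.9 CPM in wt and 33.8, 28.4, 25.9 and 33.8 CPM in *Hoxa5*-/- replicates 1 to 4. The highest mutants lay just below the lowest wt library, and the log2 fold change of -0.46 (SE 0.14) had adjusted p of 0.682 by edgeR and 0.227 by DESeq2. *Tbx4*, which acts in tracheal cartilage and muscle, gave 0.28 (SE 0.11).

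**Figure D4:**
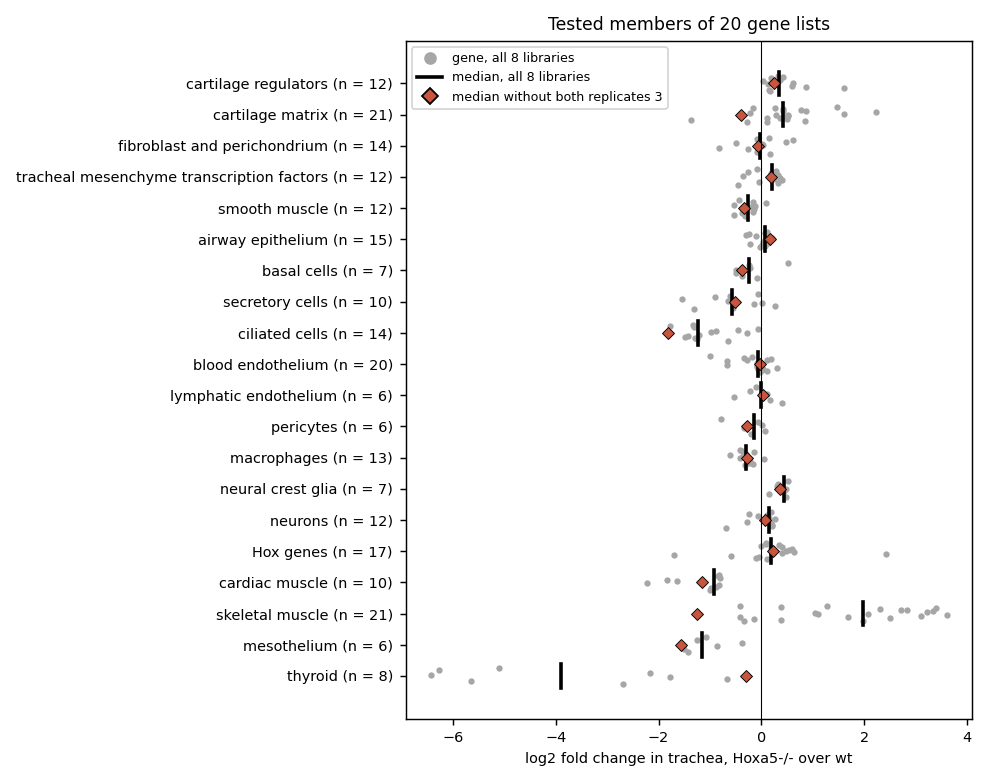
Log2 fold change in trachea (*Hoxa5*-/- over wt) of the tested members of 20 gene lists, with 1 grey point per gene, a black bar for the median in all 8 libraries and a red diamond for the median without both replicates 3. Medians of cartilage matrix, skeletal muscle and thyroid lie far from their diamonds, whereas those of cartilage regulators, ciliated cells and cardiac muscle keep their side of 0.

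Smooth muscle genes had values below 0 in 11 of 12 members, with a median of -0.27 (between -0.41 and -0.13 without each library in turn). In the 8 libraries no member was called by either tool, and 1 had an unadjusted p under 0.05, *Myocd*, the coactivator that turns on the contractile program. Without both replicates 3 the median was -0.35 and all 12 were below 0. In that fit 3 were lower at an unadjusted p under 0.05, against 8.7% of all genes. *Myocd* was at 33.6, 38.1, 21.96 and 37.3 CPM in wt and 27.99, 26.3, 19.1 and 17.6 CPM in *Hoxa5*-/- replicates 1 to 4, and wt replicate 3 lay among the mutants. Its log2 fold change was -0.53 (SE 0.21), with adjusted p of 0.736 by edgeR and 0.476 by DESeq2. For *Acta2* the values were 743, 805, 485 and 598 CPM in wt and 605, 565, 471 and 463 CPM in *Hoxa5*-/- libraries, which overlap. It gave -0.32 (SE 0.16) with adjusted p of 0.762 by edgeR and 0.708 by DESeq2. Cardiac muscle genes, some of which share contractile functions with these, were also lower in mutants (summed level 1966 to 3875 CPM in wt and 879 to 1834 CPM in *Hoxa5*-/-), and their part in the smooth muscle values was not tested.

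Among the genes called by DESeq2, the highest counts relative to library size were those of *Eln*, which encodes elastin, the elastic fibre protein of airway and vessel walls. This gene was chosen after its values were seen. Its level was 3791, 3149, 2837 and 3534 CPM in wt replicates 1 to 4 and 2224, 1319, 2394 and 1509 CPM in *Hoxa5*-/- replicates 1 to 4. All mutants were below all wt libraries, with replicates 2 and 4 the lowest. The log2 fold change was -0.84 (SE 0.20), with adjusted p of 0.602 by edgeR and 0.0119 by DESeq2.

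In the airway epithelium, no general marker passed the test. The median of 15 genes was 0.06, 10 were above 0, and none had an unadjusted p under 0.05. Without both replicates 3 the median was 0.17 and 13 of 15 were above 0, against 50.7% of all genes. In that fit 3 were higher at an unadjusted p under 0.05, against 4.65% of all genes. *Sox2*, the factor of proximal airway epithelium, was at 85.6, 69.7, 78.9 and 72.6 CPM in wt and 93.9, 81.2, 73.2 and 84.1 CPM in *Hoxa5*-/- replicates 1 to 4, with overlapping groups. It gave a log2 fold change of 0.12 (SE 0.09), and *Grhl2*, an epithelial barrier factor, 0.13 (SE 0.13). *Krt19*, the most abundant of these genes, had -0.29 (SE 0.40), and the summed level of the list was highest in wt replicate 3 at 2795 CPM.

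Differentiated epithelial cell types varied more between libraries than between genotypes. Basal cell genes had a median of -0.24, which turned to 0.39 without wt replicate 3. *Trp63*, the basal cell master factor, was the member with the smallest p, at 28.2, 34.004, 29.5 and 34.7 CPM in wt and 61.5, 36.02, 33.2 and 50.1 CPM in *Hoxa5*-/- replicates 1 to 4. *Hoxa5*-/- replicates 1 and 4 were the highest, and replicate 3 overlapped wt, the fold change being 0.52 (SE 0.19) on the log2 scale, at adjusted p of 0.729 by edgeR and 0.379 by DESeq2. Secretory genes had a median of -0.58 and turned to 0.26 without the same wt library. *Scgb3a2*, the secretoglobin of immature club cells, ranged from 209.97 to 2095 CPM in wt and from 210.1 to 1288 CPM in *Hoxa5*-/- libraries. It gave a log2 fold change of -0.61 (SE 0.78).

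All 14 ciliated cell genes were below 0, with a median of -1.24 that stayed between -2.10 and -0.60 when each library was left out. Only *Ccno*, a regulator of centriole amplification, had an unadjusted p under 0.05 in the 8 libraries, and 11 of 14 had one without both replicates 3, where the median was -1.82 and 8.7% of all genes were lower at that p. *Foxj1*, the master factor of motile cilia, was at 227, 133, 259.97 and 88.6 CPM in wt and 97.2, 22.9, 168 and 18.002 CPM in *Hoxa5*-/- replicates 1 to 4. Mutant replicates 2 and 4 were the lowest, while replicate 3 of each genotype was its highest. It gave a log2 fold change of -1.21 (SE 0.70), with adjusted p of 0.777 by edgeR and 0.814 by DESeq2. *Ccno* gave -0.66 (SE 0.26) and *Myb*, which acts early in multiciliated cells, -0.89 (SE 0.39).

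The summed level of ciliated genes was set beside the makeup of the globins, which changes as the red cells of the embryo are replaced. Embryonic globins, made by the early yolk sac lineage and replaced as development proceeds, were 3.28%, 1.36%, 0.253% and 5.65% of all globin counts in wt replicates 1 to 4. In *Hoxa5*-/- replicates 1 to 4 they were 3.66%, 11.2%, 0.582% and 10%. The widest Wilson 95% interval, that of *Hoxa5*-/- replicate 2, ran from 10.8% to 11.6% and covers counting error only. The 3 libraries with the highest embryonic share (*Hoxa5*-/- replicates 2 and 4 and wt replicate 4) were the 3 with the lowest ciliated sum, at 175, 151 and 372 CPM. Both replicates 3 had the lowest embryonic shares, with ciliated sums of 1049.8 CPM in wt and 660.1 CPM in *Hoxa5*-/-. At about the same share, *Hoxa5*-/- replicate 1 had 373 CPM and wt replicate 1 757 CPM. The order was not strict, since wt replicate 2 had a lower embryonic share than wt replicate 1 and also a lower ciliated sum, of 509 CPM. The part of embryo age in the ciliated, secretory and basal values, and in those of all other genes and lists given here, was not tested.

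**Figure D5:**
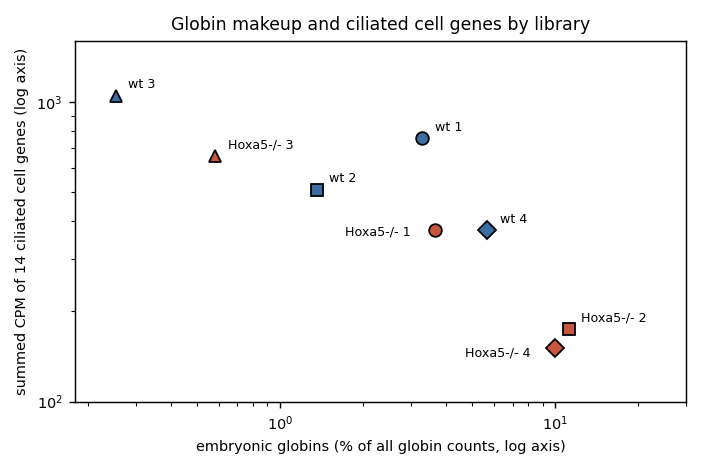
Summed CPM of 14 ciliated cell genes against embryonic globins as a percentage of all globin counts in the 8 trachea libraries, both on log axes, with wt in blue, *Hoxa5*-/- in red and the marker shape giving the replicate number. Wt replicate 3 and *Hoxa5*-/- replicate 3 lie at the left with 0.253% and 0.582% embryonic globins, and *Hoxa5*-/- replicates 2 and 4 at the lower right with 11.2% and 10%.

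In blood vessels, a few endothelial genes were lower in *Hoxa5*-/- tracheas while general endothelial markers had values near 0. Among 20 endothelial genes, 5 had an unadjusted p under 0.05 and were lower in mutants, and the groups did not overlap in 5 (*Ptprb*, *Vwf*, *Tek*, *Tie1* and *Sox17*), against 3.64% and 1.93% of all genes in that direction. The median was -0.07, and *Cdh5*, VE-cadherin, had -0.02 (SE 0.07). *Vwf*, which encodes von Willebrand factor, was at 76.95, 64.2, 52.8 and 82.6 CPM in wt replicates 1 to 4 and 29.2, 35.7, 34.4 and 39.2 CPM in *Hoxa5*-/- replicates 1 to 4. The highest mutant was below the lowest wt library, wt replicate 3. It gave a log2 fold change of -0.997 (SE 0.15), with adjusted p of 0.225 by edgeR and 1.04e-06 by DESeq2. *Thbd*, thrombomodulin of the endothelial surface, was at 199.9, 146, 162 and 192 CPM in wt and 115, 122, 89.4 and 114 CPM in *Hoxa5*-/- libraries, again without overlap. It gave -0.67 (SE 0.13) with adjusted p of 0.439 by edgeR and 0.00103 by DESeq2. *Tek*, the angiopoietin receptor that VE-PTP dephosphorylates, had -0.33 (SE 0.08) and *Tie1*, its partner receptor, -0.18 (SE 0.06).

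Pericyte markers differed among themselves. *Rgs5*, a G protein regulator of pericytes, was at 54.4, 66.01, 79.8 and 56.1 CPM in wt and 31.01, 31.6, 48.1 and 38.4 CPM in *Hoxa5*-/- replicates 1 to 4. Replicate 3 was the highest in each genotype, and all mutants were below all wt libraries. Its fitted log2 difference of -0.78 (SE 0.17) had an adjusted p of 0.55 by edgeR and 0.00959 by DESeq2. *Enpep*, the aminopeptidase that cleaves angiotensin and is found on pericytes, was at 46.5, 53.5, 31.02 and 41.2 CPM in wt and 21.7, 27.2, 21.5 and 20.2 CPM in *Hoxa5*-/- libraries. The groups were apart by a few CPM, and the log2 fold change was -0.92 (SE 0.17) with adjusted p of 0.4 by edgeR and 3.46e-04 by DESeq2. *Notch3*, the most abundant pericyte marker here, gave 0.01 (SE 0.07), and the median of the list was -0.14. Lymphatic genes had a median of -0.01, with -0.53 (SE 0.26) for *Lyve1* and 0.16 (SE 0.08) for *Flt4*.

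Of the tissues that lie beside the trachea, cardiac muscle separated the genotypes. All 10 cardiac genes were below 0 with a median of -0.93, 6 had an unadjusted p under 0.05 and 5 did not overlap between the groups, against 3.64% and 1.93% of all genes in that direction. *Myl7*, the atrial myosin light chain, was at 433, 625, 371 and 619.8 CPM in wt and 264, 352, 312 and 186 CPM in *Hoxa5*-/- replicates 1 to 4. Its mean level was 3317 TPM in wt and 1817 TPM in *Hoxa5*-/-, above that of *Acta2*. Its fitted log2 difference of -0.88 (SE 0.23) had adjusted p of 0.653 by edgeR and 0.0353 by DESeq2. *Myh6*, the atrial myosin heavy chain, was at 1321, 1953, 948 and 1409.9 CPM in wt and 788, 874, 776 and 407 CPM in *Hoxa5*-/- libraries, lowest in *Hoxa5*-/- replicate 4. It gave -0.99 (SE 0.27) with adjusted p of 0.662 by edgeR and 0.0438 by DESeq2. In lung the same contrast gave 1.21 for *Myl7* and 0.96 for *Myh6*, and -0.21 and -0.13 without *Hoxa5*-/- replicate 4 of lung. How much heart tissue each dissection held is not given in the sources used here, and it cannot be told apart from an effect of genotype on these genes.

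Thyroid genes came almost wholly from wt replicate 3. *Tg*, thyroglobulin, was at 5.02, 3.84, 823 and 3.295 CPM in wt and 2.901, 2.63, 3.23 and 2.09 CPM in *Hoxa5*-/- replicates 1 to 4. The list median was -3.90 with all libraries and -0.30 without both replicates 3, where *Tg* had -0.67. The same library held *Pth*, parathyroid hormone, at 11.9 CPM and none elsewhere, and *Sftpc*, the surfactant protein of distal lung, at 78.8 CPM against 0.494 to 5.26 CPM in the others.

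Genes of the skeletal muscle list were present in every library and highest in *Hoxa5*-/- replicate 3. In the other libraries their summed level was 661.5 to 1279.8 CPM in wt and 249.6 to 592.4 CPM in *Hoxa5*-/-. Cardiac muscle sums were lower in mutants as well. Some genes of the 2 lists share contractile functions, and the part of heart tissue in the skeletal muscle values was not tested. *Ryr1*, the calcium release channel of skeletal muscle, was at 4.83, 3.77, 1.61 and 4.09 CPM in wt and 3.35, 2.897, 140.4 and 2.61 CPM in *Hoxa5*-/- replicates 1 to 4. The list median was 1.96 over 21 genes and became -1.25 without both replicates 3, where 17 of 21 had an unadjusted p under 0.05 and were lower in mutants, against 8.7% of all genes in that fit. *Pax7*, the factor of muscle stem cells, was nonetheless higher in all mutants than in any wt library, with 0.935, 0.5802, 0.754 and 0.483 CPM in wt and 1.18, 1.28, 10.01 and 1.19 CPM in *Hoxa5*-/- libraries. In the 8 libraries the log2 fold change was 2.31 (SE 0.78), and 0.87 without both replicates 3. DESeq2 gave no adjusted p for *Tg*, *Pth*, *Sftpc*, *Ryr1* and *Pax7*.

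Mesothelial genes had a median of -1.16 with all 6 below 0, and -0.31 without wt replicate 2, whose summed level of 276 CPM was the highest. *Wt1*, a mesothelial transcription factor, was at 9.66, 34.9, 6.56 and 9.93 CPM in wt and 3.55, 7.28, 7.95 and 10.1 CPM in *Hoxa5*-/- replicates 1 to 4, with overlap of the groups. Macrophage genes were below 0 in 12 of 13 members with a median of -0.30, and *Cx3cr1*, the fractalkine receptor, had the smallest p with -0.36 (SE 0.16). Genes of neural crest glia were above 0 in all 7 members with a median of 0.43. *Sox10*, their master factor, was at 28.5, 25.7, 24.7 and 21.97 CPM in wt and 25.7, 43.8, 41.6 and 32.8 CPM in *Hoxa5*-/- replicates 1 to 4, where *Hoxa5*-/- replicate 1 overlapped wt. It gave a log2 fold change of 0.51 (SE 0.17) with adjusted p of 0.682 by edgeR and 0.239 by DESeq2. Neuronal genes had a median of 0.15, neuroendocrine genes -0.12 and cell cycle genes 0.10. Medians of the lists for adipocytes, granulocytes and mast cells, erythroid cells, hepatocytes, oesophagus, and thymus and parathyroid were -0.28, -1.18, -0.21, 0.33, -0.34 and 0.08, with no member called by either tool. Several of these rest on single libraries: without 1 library they lay between -1.90 and 1.199 for hepatocytes (lowest without *Hoxa5*-/- replicate 4), -2.20 and -0.36 for granulocytes and mast cells, and -0.91 and -0.08 for oesophagus (both highest without wt replicate 3).

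Signalling pathways of the trachea gave small differences. Hedgehog, the epithelial signal that patterns tracheal mesenchyme, had a median of 0.05 over 11 genes, and 1 of them, *Cdon*, a coreceptor, had an unadjusted p under 0.05 at 0.18 (SE 0.07). Wnt genes had a median of 0.13. *Wnt7b*, an epithelial ligand for the mesenchyme, was at 62.7, 54.2, 64.4 and 61.4 CPM in wt and 78.04, 87.05, 66.6 and 80.02 CPM in *Hoxa5*-/- replicates 1 to 4, without overlap although *Hoxa5*-/- replicate 3 was close to wt. It gave 0.36 (SE 0.09) with adjusted p of 0.618 by edgeR and 0.0681 by DESeq2. FGF and BMP genes had a median of 0.09, and 6 of 15 had an unadjusted p under 0.05 and were higher in mutants (*Bmp5*, *Fgf10*, *Fgfr2*, *Id1*, *Nog* and *Msx2*), against 3.06% of all genes. *Bmp5*, a ligand of perichondrium and cartilage, was at 25.9, 26.7, 25.7 and 29.9 CPM in wt and 40.2, 32.1, 35.2 and 36.2 CPM in *Hoxa5*-/- libraries, and all mutants were above all wt libraries. Its fitted log2 difference of 0.41 (SE 0.09) had adjusted p of 0.542 by edgeR and 0.0119 by DESeq2, below the 1.5-fold minimum. *Fgf10*, a mesenchymal growth factor, gave 0.48 (SE 0.15) and *Id1*, a BMP target, 0.29 (SE 0.09). *Nog*, a BMP antagonist, had 0.78 (SE 0.29) and *Msx2*, a homeobox target of BMPs, 0.93 (SE 0.40), and no gene of these pathways was called by either tool. Retinoic acid genes had a median of -0.02.

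The remaining genes with the smallest p belong to no list. Groups that do not overlap were a condition for naming them, so the lack of overlap is no result. *Grm4*, a metabotropic glutamate receptor, was at 2.34, 2.45, 3.62 and 2.28 CPM in wt and 7.31, 6.19, 6.37 and 5.59 CPM in *Hoxa5*-/- replicates 1 to 4, with a log2 fold change of 1.25 (SE 0.19). *Shank1*, a postsynaptic scaffold gene, was at 40.5, 45.1, 35.998 and 51.4 CPM in wt and 70.6, 66.9, 63.9 and 70.1 CPM in *Hoxa5*-/- libraries and gave 0.65 (SE 0.10). *Sh2d6* was below 0.2 CPM in every wt library and between 0.494 and 1.204 CPM in mutants, with 2.44 (SE 0.38). Their adjusted p was 0.235, 0.284 and 0.249 by edgeR and 7.23e-06, 4.02e-05 and 0.00958 by DESeq2. Lower in mutants were *Maob*, monoamine oxidase B, with -0.74 (SE 0.13), *Thsd7a*, which encodes a membrane protein of vessels and kidney podocytes, with -0.82 (SE 0.15), and *Pappa2*, a protease of IGF-binding proteins, with -0.897 (SE 0.17). DESeq2 gave them adjusted p of 1.89e-04, 3.96e-04 and 7.85e-04, and edgeR 0.375, 0.375 and 0.439.

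The genotype effect in trachea was compared with that in lung and diaphragm of the same stage and sequencing centre, as an interaction in edgeR. Of the lung libraries, *Hoxa5*-/- replicate 4 stood apart, with 15.55% of its counts in its 10 most counted genes against 3.44% to 3.81% in the other 7. Against lung, 1 of 19907 genes (0.00502%) differed. It was *Hoxa6*, with a log2 fold change of 2.42 in trachea and -0.37 in lung, a difference of 2.79 with an adjusted p of 0.0137. It no longer passed without wt replicate 1 or *Hoxa5*-/- replicate 1 of trachea, or without wt replicate 4 or *Hoxa5*-/- replicates 1 or 4 of lung. For *Hoxb3*, *Vwf* and *Scx*, lung gave 0.26, -0.41 and -0.01, and their differences from trachea did not pass. Without *Hoxa5*-/- replicate 4 of lung these were 0.35, -0.54 and 0.08, and the difference for *Hoxa6* was 2.81 with an adjusted p of 0.0521 by edgeR.

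Against diaphragm, 89 of 20289 genes (0.439%) differed, of which 85 had the higher effect in trachea. Among the named genes these included *Shank1*, *Myocd*, *Sox2*, *Grhl2*, *Sox10* and *Fabp7*. In 5 of these 6 genes the larger change was that in diaphragm, where *Sox2* had -4.24 and *Myocd* -2.73, against 0.12 and -0.53 in trachea. In diaphragm, all 15 genes of the airway epithelium list had values below 0, with a median of -2.16. Their summed level in diaphragm was 111, 149, 291 and 38.8 CPM in wt and 39.8, 26.7, 88.2 and 71.3 CPM in *Hoxa5*-/- replicates 1 to 4, and its part in the difference for *Sox2* and *Grhl2* was not tested. The exception among the 6 genes was *Shank1*, at 0.65 in trachea and -0.31 in diaphragm, with an adjusted p of 0.031 for the difference. The number of genes that differed was 163 without *Hoxa5*-/- replicate 3 of trachea and 49 to 179 without other single libraries, with 141 and 179 without wt replicates 3 and 4 of diaphragm and 55, 49 and 49 without its wt replicate 1 and *Hoxa5*-/- replicates 1 and 2.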

How the data were processed

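RNA-seq counts of 8 trachea libraries (4 wt and 4 *Hoxa5*-/-, E15.5) were analysed, with 8 lung and 8 diaphragm libraries of that stage for the interactions. Genotype and replicate were taken from the deposited labels. Before deposit, the authors used Trim Galore 0.6.5 for trimming, STAR 2.7.9a for alignment (GRCm39) and featureCounts 2.0.3 for gene counts, on a *Hox*-curated GENCODE annotation. The deposited counts are whole numbers without normalization. The authors converted them into TPM with the exon length of each gene, and these served here for the filter and for levels between genes. The strand setting is not given in the sources used here.

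Genes averaging 1 TPM or more in wt or *Hoxa5*-/- libraries were tested in R 4.3.3 by quasi-likelihood (edgeR 4.0.16), with TMM and Benjamini-Hochberg adjustment over all genes tested. A call required both an adjusted p below 0.05 and a 1.5-fold difference. Log2 fold changes are *Hoxa5*-/- over wt, with SE as their size over the square root of F. CPM are TMM-scaled. Interactions used 16 libraries each and no minimum fold change. Totals of 23097464 to 39742853 counts per library mean that genes under 1 CPM rest on few counts. Alternatives were DESeq2 1.42.0, its size factors in edgeR, filterByExpr, no filter, no fold minimum, the replicate number as a block, 1 fit of 32 libraries, an *Xist* covariate and the removal of single libraries. Removing both replicates 3, or *Hoxa5*-/- replicate 4 of lung for lung values, was chosen after seeing the data. The fit was tested on simulated counts, and Python 3.11.15, pandas 2.3.3 and matplotlib 3.10.9 made summaries and figures.

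Members and lists were chosen with earlier results of these data known. The named genes are *Hoxa5*, called genes, the 8 genes per direction with the smallest p among those changed at least 1.5-fold whose groups do not overlap, up to 2 members of each list with the smallest p plus its most abundant member, and all *Hox* genes at 1 TPM. Every other gene named was chosen after its values were seen. No list was tested as a set. A few genes that the rule names are not reported here.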

Additional observations from a re-analysis of the deposited data

Results flagged for a closer look

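Within a genotype, 1 of the 4 libraries lay far from the other 3 (Dixon's test at 95%) in 8 of 80 groups of values, and chance alone marks about 1 in 20 groups. In wt replicate 3, the summed CPM was 933 for thyroid genes (11.3 to 14.02 in the other wt libraries), 302.2 for distal lung epithelium (128 to 149), 342.7 for immediate early and stress genes (246.9 to 256.4) and 632 for pericytes (678 to 687). In *Hoxa5*-/- replicate 3 it was 4463 for skeletal muscle (249.6 to 592), 677.5 for transcription factors of the tracheal mesenchyme (875 to 906.5) and 712.8 for TALE genes (943 to 989.8). *Gm19248* was at 0.2726 CPM in wt replicate 1 and at 0 to 0.0251 CPM in the other wt libraries. The causes were not tested.

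The genotype effect differed between tissues by the interaction test for 7 of the named genes given here. The log2 fold change in trachea exceeded that in lung by 2.79 for *Hoxa6*. It exceeded that in diaphragm by 0.943 for *Shank1*, 2.19 for *Myocd*, 4.33 for *Sox2*, 4.62 for *Grhl2*, 2.26 for *Sox10* and 3.05 for *Fabp7*. In diaphragm all 15 airway epithelium genes, *Sox2* and *Grhl2* among them, had log2 fold changes below 0, with a median of -2.16, and the part of epithelium held by these samples was not tested.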

How the results depend on the processing

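With 3 genes called, DESeq2 gave 52, the replicate block 1, 1 fit of all 32 libraries 40, *Xist* as a covariate 1, and leaving out both replicates 3 gave 1. Leaving out 1 library gave 0 to 1. DESeq2 size factors, filterByExpr and no fold minimum gave 3, no filter 4. *Hoxa5* itself had -1.75 with *Xist* as a covariate (adjusted p = 0.0914 by edgeR) and -1.85 to -1.57 without 1 library, where it lost its call each time. Interaction counts were 1 for lung, 59 with DESeq2, 26 with the replicate block and 0 to 2 without 1 library, and 89 for diaphragm, 378 with DESeq2, 136 with filterByExpr, 182 with the replicate block and 49 to 179 without 1 library. Replicate numbers are not stated to pair embryos, and same-numbered deviations correlated at -0.094, -0.00732, 0.474 and 0.493, with wt replicate 4 closest to *Hoxa5*-/- replicate 2 (0.64), so the block is given here only.

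Among 120 named genes none of the 3 called ones turned. Directions turned with the *Xist* covariate for *Krt15* (0.397), *Scgb3a2* (0.158), *Trf* (0.257), *Cdh5* (0.0137), *Notch3* (-0.0181) and *Hoxc5* (0.0485), and with the replicate block for *Acta1* (-0.596) and *Hoxc5* (0.126). Without 1 library or both replicates 3, values that turned ran from -0.325 to 0.712 (*Col2a1*), -0.629 to 0.107 (*Krt19*), -1.19 to 0.0151 (*Krt14*), -1.65 to 0.485 (*Krt15*), -1.39 to 0.316 (*Scgb3a2*), -3.75 to 0.603 (*Slc34a2*), -0.518 to 3.79 (*Ryr1*), -2.33 to 3.34 (*Acta1*), -0.0897 to 0.00677 (*Cdh5*), -0.0319 to 0.0537 (*Notch3*), -2.64 to 0.31 (*S100a9*), -0.0119 to 0.348 (*Gap43*), -0.866 to 1.64 (*Apoa2*), -1.84 to 0.571 (*Trf*), -0.2 to 0.159 (*Crabp1*), -0.109 to 0.0172 (*Hoxa3*), -0.177 to 0.0422 (*Jun*), -0.133 to 0.281 (*Hoxd9*), -0.189 to 0.0242 (*Hoxa2*), -0.038 to 0.407 (*Hoxb7*) and -0.257 to 0.712 (*Hoxc5*). List medians moved by at least the SD between the 4 *Hoxa5*-/- libraries in 24 fits without 1 library and by less in 256. That SD was wide for some lists, so a median could change sign and still count among the 256. For cartilage matrix the median went from 0.42 to -0.43 without *Hoxa5*-/- replicate 3, at an SD of 0.88. *Hoxa6*, *Sh2d6* and *Gm19248* had under 15 counts in each wt library.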

Other observations

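Several lymphoid genes were higher in *Hoxa5*-/- tracheas. They were looked at after their values had been seen among the genes called by DESeq2, so that no test of them as a group was made. *Il7r*, the receptor of the lymphocyte growth factor IL-7, was at 0.273, 0.451, 0.553 and 2.24 CPM in wt replicates 1 to 4 and 8.499, 5.53, 2.25 and 10.4 CPM in *Hoxa5*-/- replicates 1 to 4. *Hoxa5*-/- replicate 3 and wt replicate 4 were nearly level, and the other mutants were well above wt. It gave a log2 fold change of 2.95 (SE 0.71) with adjusted p of 0.602 by edgeR and 0.00532 by DESeq2. *Ltb*, lymphotoxin beta of lymphoid tissue inducer cells, was at 0.974, 0.8703, 0.427 and 1.85 CPM in wt and 5.802, 3.33, 1.87 and 8.46 CPM in *Hoxa5*-/- libraries, which were barely apart at *Hoxa5*-/- replicate 3. It gave 2.26 (SE 0.56) with adjusted p of 0.61 by edgeR and 0.0141 by DESeq2. *Madcam1*, an addressin of lymphoid vessels, gave 1.498 (SE 0.28), *Cd4* 1.795 (SE 0.43), *Cd37* 1.202 (SE 0.25) and *Il2rg*, the common cytokine receptor chain, 0.87 (SE 0.22), all called by DESeq2 and none by edgeR. Of 20 lymphoid genes looked at, 13 were tested, 11 had a log2 fold change above 0 (50.6% of all genes) and 6 did not overlap between the groups (1.95% of all genes), which are the 6 called by DESeq2 that led to the others. *Id2*, a factor that inducer cells need, gave 0.31 (SE 0.16) and *Tnfrsf11a* -0.13 (SE 0.18), while *Cd3e*, *Cd3g* and *Cd8a*, which mark T cells, were below the TPM minimum.

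DESeq2 also called genes of other functions that stand in none of the lists, likewise chosen after their values were seen. *Chrdl1*, a secreted BMP antagonist, was at 17.95, 30.7, 13.1 and 17.9 CPM in wt and 51.6, 43.7, 40.3 and 45.5 CPM in *Hoxa5*-/- replicates 1 to 4, with every mutant above every wt library. It gave 1.18 (SE 0.23) with adjusted p of 0.492 by edgeR and 6.76e-04 by DESeq2. *Igfbp3*, an IGF-binding protein, gave 0.72 (SE 0.19) with overlapping groups, and *Alx1*, a homeobox gene of craniofacial mesenchyme, 0.79 (SE 0.19). *Ace*, the angiotensin-converting enzyme, was at 7.205, 7.41, 8.26 and 6.72 CPM in wt and 3.68, 2.27, 5.0999 and 2.65 CPM in *Hoxa5*-/- libraries, lower in all mutants. Its log2 fold change was -1.11 (SE 0.25), with adjusted p of 0.585 by edgeR and 0.0119 by DESeq2.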
